A study of Mus musculus with 5 samples.

Results

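The genes described here are those of the semaphorin, ephrin, slit and netrin guidance systems, as measured in mouse hearts at the embryonic stage E10.5. They were chosen by gene symbol alone, from the annotation of the array: every symbol starting with Sema, Plxn, Efna, Efnb, Epha, Ephb or Unc5, with Slit1 to Slit3, Robo1 to Robo4, Ntn1, Ntn3 and Ntn4. This gave 67 of the 23279 named genes, in 10 families: 20 semaphorins, 10 plexins, 5 ephrin-A, 3 ephrin-B, 9 EphA and 4 EphB genes, 3 Slit, 4 Robo, 3 netrin and 6 Unc5 genes. By its letters alone the rule also takes in Unc50, which is not a netrin receptor, the Unc5c-like gene Unc5cl and the noncoding transcript Plxna4os1. RNA of whole embryonic hearts was hybridised to 2 arrays of the genotype labelled KO and 3 arrays of the genotype labelled Control. The title of the series names Lrrfip2, a leucine-rich repeat protein gene, and the response to hypoxia as its subject. The sources used here give neither the allele, the strain, the genotype of the controls nor whether an array is 1 heart or a pool, so p-values measure the spread between these 5 samples.

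Axon guidance cues are secreted or membrane-bound proteins that attract or repel moving cells, and they act in blood vessels and the heart as well as in nerves. Secreted class 3 semaphorins mostly bind neuropilins paired with plexins, and the membrane-bound classes bind plexins directly. Ephrins are cell-surface ligands of the Eph receptor tyrosine kinases, ephrin-A proteins being held by a lipid anchor and ephrin-B proteins crossing the membrane. Slits signal through Robo receptors, and netrins through Dcc, neogenin and the Unc5 receptors. In the mouse heart Sema3c and Plxna2 are known for the outflow tract, Plxnd1 for endothelium, Efnb2 and Ephb4 for arterial and venous vessels, and Epha3 for the atrioventricular cushions.

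Levels are log2 RMA values, so a difference of 1 is a 2-fold change, and every difference is knockout minus control. Lrrfip2 (Entrez 71268, chromosome 9) had levels of 6.36 and 6.22 in knockout hearts, against 7.33, 8.07 and 8.08 in control hearts. Its groups did not overlap and ran with the labels, although the sources do not say whether its probes lie in the deleted part. The correlation over all probe sets between 2 arrays was 0.986 to 0.996 and was lowest between the knockout arrays. Knockout replicate 2 carried liver and gut endoderm transcripts, with Afp at 11.42 there against 3.86 in knockout replicate 1 and 3.88 to 4.07 in controls. Y-linked genes were at a mean level of 7.02 in control replicate 1 and at 2.72 to 2.99 on the other arrays. Cardiomyocyte markers such as Tnnt2 (12.40 and 12.19 in knockout hearts, 12.29 to 12.31 in controls) were present on all arrays. Of 10 such markers 5 were higher and 5 lower in the knockout, with Myh6 (-0.22) at an unadjusted p under 0.05 in limma. Their median shift from the control mean was 0.11 and -0.15 on knockout replicates 1 and 2, against -0.0045 to -0.0023 in controls. Tnnt2, Myh7, Ttn and Ryr2 were above all controls on knockout replicate 1 and below all controls on knockout replicate 2. Over all genes, 5.94% had this order. In whole hearts, fewer cells of a type and less RNA per cell cannot be told apart.

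Of the 67 guidance genes, 54 had a mean over the 5 arrays at or above the 40th percentile of all genes, a log2 level of 4.44, and were tested. The 13 dim genes were Sema3e, Sema4f, Sema6b, Sema7a, Plxnb3, Efna3, Epha5, Epha6, Epha8, Ephb6, Robo3, Ntn4 and Unc5cl. Their levels lay between 2.98 and 4.67 on all arrays and their differences between -0.10 and 0.23. Of the genes tested, 24 had a higher and 29 a lower mean in knockout than in control hearts, and 1, Slit1, had the same value of 4.48 on all arrays. The median difference was -0.018, against -0.015 over all 13967 genes tested.

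No guidance gene was called in limma at a Benjamini-Hochberg adjusted p under 0.05: the count was 0 of 54, and 0 of 13967 (0%) over all genes. The smallest adjusted p among guidance genes was 0.434. At an unadjusted p under 0.05 in limma there were 4 guidance genes (7.41%), against 1227 genes or 8.78% over the whole table, so the share was near the background. In knockout hearts 3 of the 4 were lower, Efnb3, Epha7 and Ephb3 (5.56%, against 5.49% of all genes), and 1 was higher, Epha4 (1.85%, against 3.29%). All 4 belong to the ephrin and Eph system, of which 4 ephrin-A, 3 ephrin-B, 6 EphA and 3 EphB genes were tested. This grouping was seen afterwards and was not tested. Knockout and control levels did not overlap for 12 guidance genes (22.2%), against 21.3% of all genes. Of these 12, 4 were higher in the knockout (7.41%, against 8.18% of all genes) and 8 lower (14.8%, against 13.1%).

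**Figure D1:**
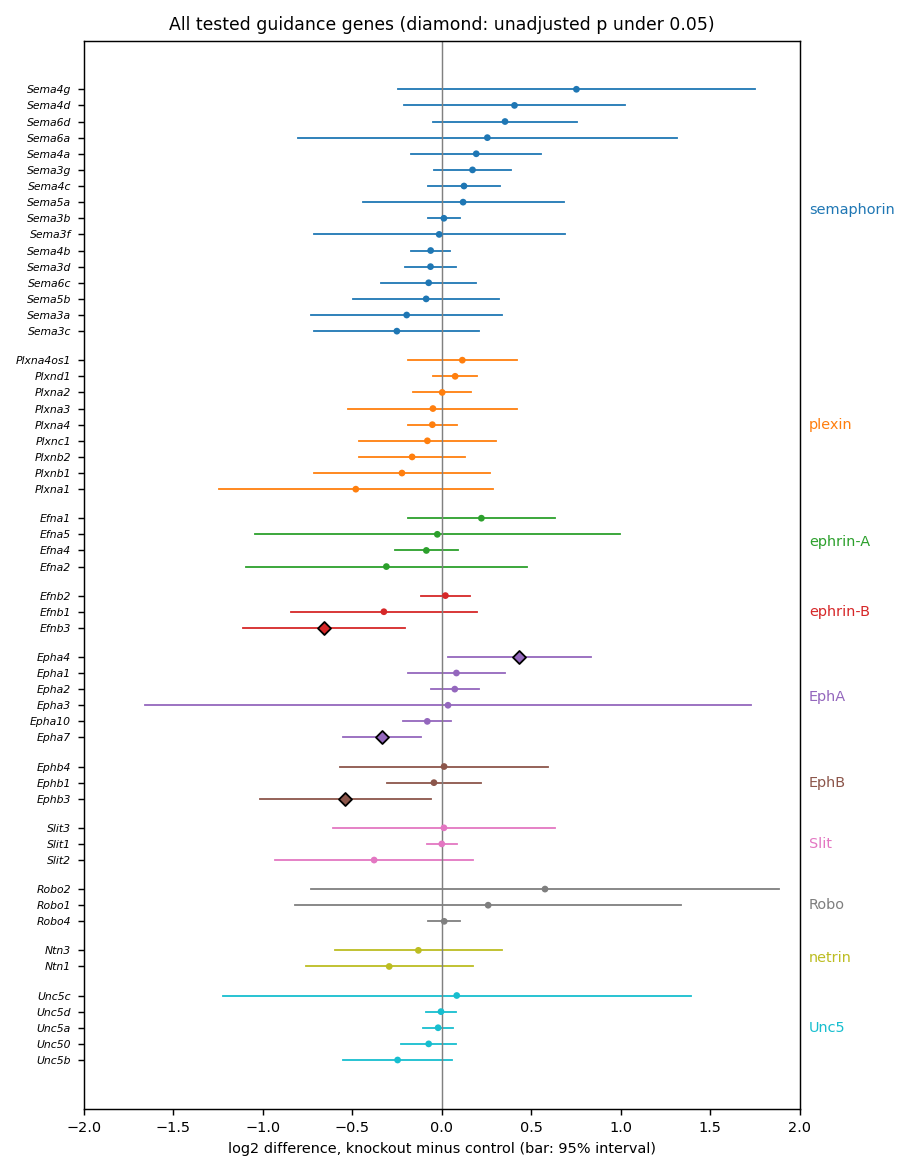
Log2 difference between knockout and control hearts (knockout minus control, horizontal axis) for the 54 tested guidance genes, grouped by family and ordered within each, with 95% intervals from limma as bars. Diamonds mark the 4 genes with an unadjusted p under 0.05 (Efnb3, Epha4, Epha7 and Ephb3), and the intervals of the other 50 include 0.

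The ephrin-B ligand Efnb3 (Entrez 13643, chromosome 11) was the guidance gene with the largest difference among these 4. Its level was 6.78 and 7.26 in knockout hearts, against 7.66, 7.61 and 7.76 in control hearts. Both knockout arrays lay below every control array, and the knockout arrays differed from each other by 0.48. Knockout minus control came to -0.66 ± 0.16 (SE) on the log2 scale, which is 1.58-fold lower, at an unadjusted p of 0.0154 and an adjusted p of 0.453 in limma. Without control replicate 1 the p was 0.0537, and without control replicate 3 it was 0.0607.

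The other ephrin-B genes gave a mixed picture. Efnb1, an X-linked gene, had levels of 6.23 and 6.77 in knockout hearts, against 6.76, 6.94 and 6.76 in control hearts, so only knockout replicate 1 was below the controls. Efnb2, the ligand that marks arterial endothelium, had levels of 8.02 and 7.90 in knockout hearts, against 7.96, 7.94 and 7.92 in control hearts. Its difference was 0.02, with a 95% interval of -0.12 to 0.16 that does not reach the value for Efnb3. The family median was -0.32, and the family shift from the control mean was -0.59 and -0.052 on the 2 knockout arrays.

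Among the EphB receptors, Ephb3 (Entrez 13845, chromosome 16) had levels of 6.19 and 6.53 in knockout hearts, against 7.13, 6.78 and 6.78 in control hearts. All knockout values lay below all control values. The difference was -0.54 ± 0.17 (SE), with an unadjusted p of 0.0352 and an adjusted p of 0.535 in limma, and the unadjusted p was 0.0509 to 0.184 when any 1 of the 5 arrays was left out. Ephb4, the venous receptor for Efnb2, had levels of 6.60 and 7.22 in knockout hearts, against 7.004, 6.86 and 6.82 in control hearts. The knockout arrays stood on either side of the controls, and the difference was 0.01 (95% interval -0.57 to 0.59). Ephb1 did likewise at a lower level, with 4.37 and 4.65 in knockout hearts and 4.54 to 4.56 in controls.

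The EphA receptors Epha7 and Epha4 differed in opposite directions. Epha7 (Entrez 13841, chromosome 4) had levels of 7.09 and 7.25 in knockout hearts, against 7.54, 7.42 and 7.57 in control hearts. This is a difference of -0.34 ± 0.08 (SE), or 1.26-fold lower, at an unadjusted p of 0.0129 and an adjusted p of 0.434 in limma. Without knockout replicate 1 the unadjusted p was 0.0608. Epha4 (Entrez 13838, chromosome 1), a receptor that binds ephrins of both classes, had levels of 6.96 and 7.28 in knockout hearts, against 6.83, 6.70 and 6.53 in control hearts. Both groups were spread, but the lowest knockout value was above the highest control value. The difference was 0.43 ± 0.14 (SE), with an unadjusted p of 0.0392 and an adjusted p of 0.543. The unadjusted p exceeded 0.05 when knockout replicate 2 (0.18) or any 1 control (0.0514 to 0.101) was left out. The other 4 tested EphA genes had differences of -0.08 to 0.08, and the family median was 0.05.

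**Figure D2:**
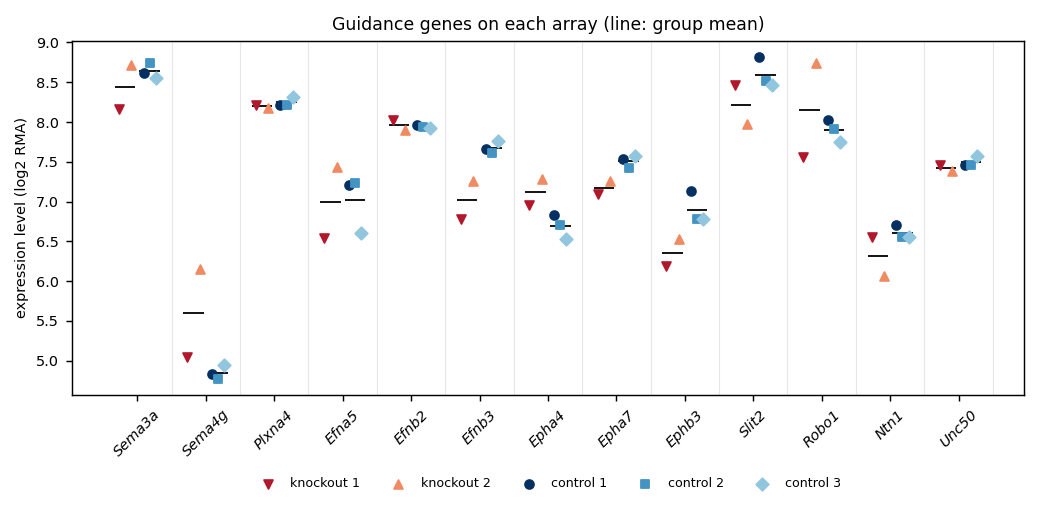
Levels (log2 RMA, vertical axis) of 13 guidance genes on the 2 knockout arrays (triangles, left of each pair) and the 3 control arrays (circle, square and diamond, right), with group means as lines. Shown are the genes with an unadjusted p under 0.05, Sema4g, and the gene with the highest control mean in each family. Efnb3, Epha7 and Ephb3 are lower and Epha4 and Sema4g higher on both knockout arrays than on any control, and levels of different genes are not comparable because their probes differ.

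For no ephrin-A gene did both knockout hearts lie on the same side of all controls. Efna5 had levels of 6.54 and 7.44 in knockout hearts, against 7.21, 7.24 and 6.61 in control hearts. Efna2 had levels of 6.11 and 6.98 in knockout hearts, against 6.83, 6.90 and 6.82 in control hearts. For both genes knockout replicate 1 was the lowest and knockout replicate 2 the highest of the 5 arrays. Efna1 was at 7.02 and 6.77 in knockout hearts and 6.47 to 6.84 in controls, and Efna4 at 5.01 and 5.18 against 5.18 on every control array. The family median was -0.06, while the shift from the control mean was -0.32 and 0.11 on the 2 knockout arrays.

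No semaphorin had an unadjusted p under 0.05. Of 16 tested, 9 had a higher and 7 a lower knockout mean; the median was 0.07, in a range of -0.25 to 0.75. The largest difference was that of Sema4g (Entrez 26456, chromosome 19), a membrane-bound class 4 semaphorin, with levels of 5.05 and 6.16 in knockout hearts, against 4.83, 4.77 and 4.94 in control hearts. The groups did not overlap, but knockout replicate 1 was only just above the controls. The difference was 0.75 ± 0.36 (SE), with an unadjusted p of 0.105 and an adjusted p of 0.570 in limma. Most of it came from knockout replicate 2, the array with endoderm transcripts. The 14 liver and gut endoderm markers, dim ones included, had mean levels of 4.45 and 7.76 in knockout hearts, against 4.51 to 4.52 in controls. Their part in the Sema4g value was not tested.

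Other semaphorins named here were chosen after their values were seen. Sema6d, which in chick signals through Plxna1 during heart tube and trabecula formation, had levels of 8.72 and 8.31 in knockout hearts, against 8.26, 8.15 and 8.08 in control hearts. Its groups did not overlap, and the difference was 0.35 ± 0.15 (SE; unadjusted p = 0.072 in limma). Sema4d had levels of 6.08 and 5.41 in knockout hearts, against 5.36, 5.41 and 5.25 in control hearts, so only knockout replicate 1 stood out. In that array the myeloid marker Tyrobp was also high, at 7.65 against 5.09 in knockout replicate 2 and 4.85 to 5.09 in controls. Over the 7 tested myeloid markers the median shift was 0.27 and 0.05 on the 2 knockout arrays, against -0.10 to 0.13 in controls, and its part in the Sema4d value was not tested.

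Of the secreted class 3 semaphorins 6 were tested. Sema3g was the one whose groups did not overlap, with levels of 4.92 and 4.71 in knockout hearts, against 4.66, 4.60 and 4.66 in control hearts, and a difference of 0.17 ± 0.08 (SE; unadjusted p = 0.092 in limma). Sema3c, a cue for the outflow tract, had levels of 7.42 and 6.92 in knockout hearts, against 7.46, 7.43 and 7.37 in control hearts. Knockout replicate 1 lay within the controls and knockout replicate 2 below them. Sema3a had levels of 8.16 and 8.72 in knockout hearts, against 8.61, 8.75 and 8.55 in control hearts, and here knockout replicate 1 was the low array. Its difference was -0.20 with a 95% interval of -0.73 to 0.34. Sema3d differed by -0.06 and Sema3b by 0.01.

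Plexins, the semaphorin receptors, had differences of -0.22 to 0.07 apart from Plxna1. Of 8 tested, 2 had a higher mean, Plxna2 and Plxnd1, and 6 a lower one, and the median was -0.07. The noncoding Plxna4os1, which the rule counts with them, differed by 0.11, and with it the median was -0.05. Plxna1 had levels of 6.54 and 7.33 in knockout hearts, against 7.52, 7.51 and 7.22 in control hearts. The low value was that of knockout replicate 1 alone, since knockout replicate 2 lay within the controls, and the difference was -0.48 (95% interval -1.25 to 0.28). Plxnd1, the endothelial plexin, had levels of 8.26 and 8.32 in knockout hearts, against 8.26, 8.20 and 8.18 in control hearts, and its difference of 0.07 had an interval of -0.05 to 0.20. Plxna2 differed by 0.0022 (interval -0.16 to 0.17) and Plxna4 by -0.05 (interval -0.19 to 0.08); the intervals of these plexins are among the narrowest of the family. The neuropilins that complete the class 3 receptors were Nrp1, at 8.69 and 8.65 in knockout hearts and 8.64 to 8.65 in controls, and Nrp2, at 6.11 and 6.46 in knockout hearts and 6.07 to 6.14 in controls.

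Slit2 had lower levels in both knockout hearts, narrowly in knockout replicate 1. It was at 8.46 and 7.98 in knockout hearts, against 8.82, 8.51 and 8.46 in control hearts, with a difference of -0.38 ± 0.20 (SE; unadjusted p = 0.132 in limma). Slit3 had levels of 7.63 and 8.16 in knockout hearts, against 8.10, 7.87 and 7.67 in control hearts, outside the controls on both sides. The receptors Robo1 and Robo2 were above the controls in knockout replicate 2 alone. Robo1 had levels of 7.57 and 8.74 in knockout hearts, against 8.03, 7.91 and 7.75 in control hearts. Robo2 had levels of 5.80 and 7.26 in knockout hearts, against 6.01, 6.01 and 5.84 in control hearts. Their mean differences of 0.26 and 0.58 had intervals of -0.82 to 1.33 and -0.73 to 1.88. The endothelial Robo4 was at 4.81 in both knockout hearts and 4.78 to 4.81 in controls.

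No netrin or Unc5 gene had an unadjusted p under 0.05 in limma. Ntn1 had levels of 6.56 and 6.07 in knockout hearts, against 6.70, 6.56 and 6.56 in control hearts, so the mean difference of -0.29 came from knockout replicate 2. Unc5b, an endothelial netrin receptor, had levels of 6.99 and 7.26 in knockout hearts, against 7.37, 7.48 and 7.28 in control hearts. Its groups did not overlap, narrowly for knockout replicate 2, and the difference was -0.25 ± 0.11 (SE; unadjusted p = 0.0891). Unc5c had levels of 6.50 and 7.91 in knockout hearts, against 7.24, 7.23 and 6.89 in control hearts, the knockout arrays lying beyond the controls on both sides. Unc5a was at 5.39 and 5.38 in knockout hearts, against 5.41 on every control array, a difference of -0.02, and Unc5d differed by -0.0046. Unc50 was at 7.46 and 7.39 in knockout hearts and 7.46 to 7.57 in controls. The netrin receptor Dcc was dim, with 1 value of 3.92 on all arrays, and neogenin, Neo1, was at 8.05 and 8.23 in knockout hearts and 8.04 to 8.16 in controls.

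**Figure D3:**
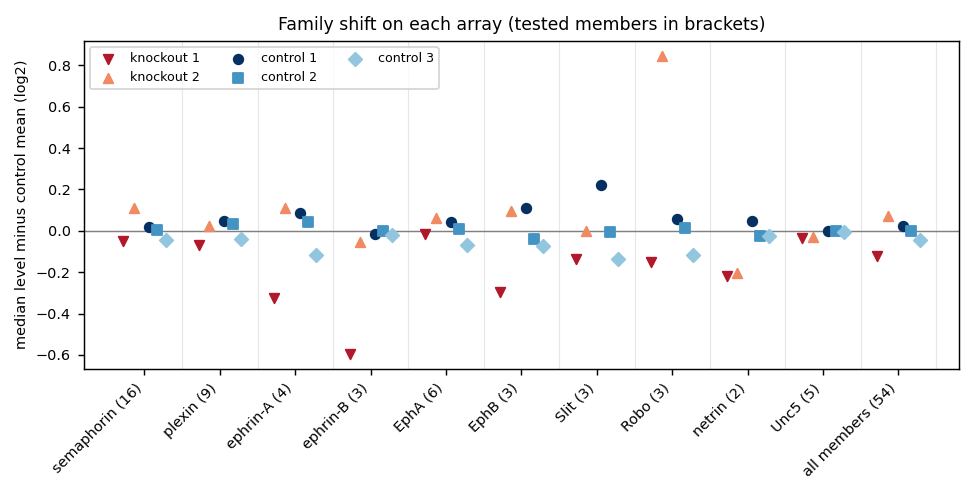
Family shift (vertical axis): the median over the tested genes of a family of each gene's log2 distance from its control mean, for each knockout array (triangles, left) and each control array (right), by family and over all 54 genes. Knockout replicate 1 is lowest for ephrin-B (-0.59), ephrin-A (-0.32) and EphB (-0.30), and knockout replicate 2 is highest for Robo (0.85), while over all genes together the shifts are -0.12 and 0.07.

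For many guidance genes the 2 knockout hearts lay on opposite sides of the controls, mostly in the same order. This count was made after the values were seen and is given without a test. For 16 of 54 guidance genes (29.6%) knockout replicate 1 was below and knockout replicate 2 above all 3 controls, against 5.59% of all genes. The opposite arrangement held for 1 guidance gene, Efnb2 (1.85%), against 5.94% of all genes. The 16 were Sema3f, Sema5b, Sema6a, Sema6c, Plxna2, Plxna3, Efna2, Efna5, Epha3, Ephb1, Ephb4, Slit3, Robo1, Robo2, Ntn3 and Unc5c, so they came from 9 of the 10 families, all but ephrin-B. The count was 16 to 18 after renormalizing or centring the arrays, against 4.68% to 6.17% of all genes. It was 17 to 20 when 1 control was left out, which makes the criterion easier for every gene and gave 6.995% to 8.23% of all genes.

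Knockout replicate 2 was above knockout replicate 1 for 37 guidance genes, below it for 13 and equal for 4. The median of knockout replicate 2 minus knockout replicate 1 was 0.27 for guidance genes and 0 over all genes. The widest gap was in Epha3, with levels of 5.06 and 6.75 in knockout hearts, against 6.11, 6.15 and 5.36 in control hearts. The controls themselves were spread for this gene, control replicate 3 being low as it was for Efna5 and Unc5c. Sema6a had levels of 6.03 and 7.19 in knockout hearts, against 6.52, 6.31 and 6.23 in control hearts. Sema3f had levels of 5.86 and 6.64 in knockout hearts, against 6.32, 6.25 and 6.21 in control hearts. Gaps of at least 0.5 between the knockout arrays occurred for 18 guidance genes (33.3%), against 11.9% of all genes, and gaps of at least 1 for 6 (11.1%), against 2% of all genes. Both limits were set after the values were seen, and the median size of the gap was 0.33 for guidance genes against 0.151 for all genes.

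**Figure D4:**
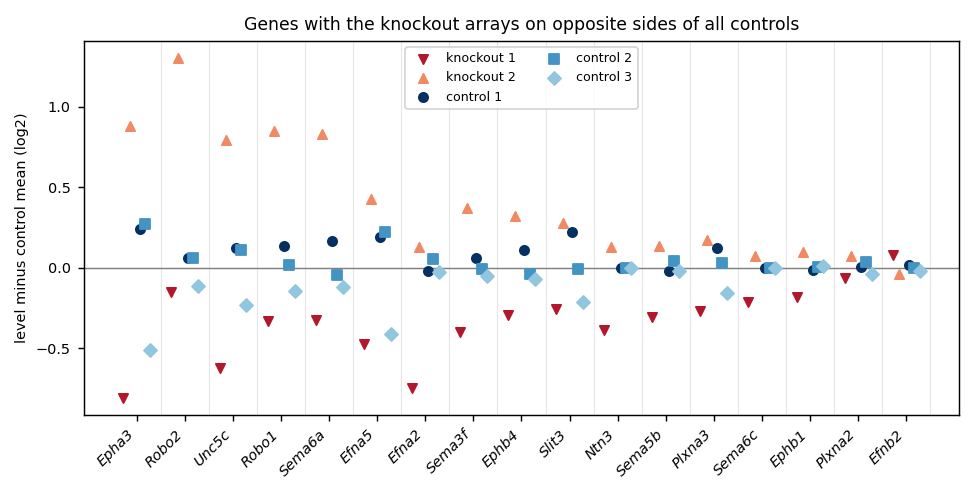
Level minus control mean (log2, vertical axis) on each array for the 17 guidance genes on which the knockout arrays lie on opposite sides of all 3 controls, ordered by the gap between the knockout arrays. For 16 of them knockout replicate 1 is the lowest and knockout replicate 2 the highest array, and for Efnb2 the order is turned.

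The liver and gut endoderm list was high in knockout replicate 2 alone. Over 14 genes its mean level was 7.76 there, against 4.45 in knockout replicate 1 and 4.51 to 4.52 in controls. The mean level of 11 cushion mesenchyme markers was 6.87 and 7.35 in knockout hearts, against 7.49, 7.49 and 7.18 in control hearts. Of these, 4 were higher and 7 lower in the knockout, with Prrx2 (-0.66) and Col2a1 (-0.62) at an unadjusted p under 0.05 in limma. The 7 pharyngeal mesoderm markers on the array had mean levels of 4.95 and 5.49 in knockout hearts, against 5.32, 5.05 and 4.77 in control hearts, and 1 of them, Fgf8, was dim. The 12 endothelial and endocardial markers had mean levels of 7.91 and 7.61 in knockout hearts, against 7.64, 7.55 and 7.43 in control hearts. Of the 11 tested, 8 were higher and 3 lower in the knockout, with Kdr (0.60) and Nfatc1 (-0.35) at an unadjusted p under 0.05 in limma. The 8 epicardial markers had mean levels of 7.21 and 7.39 in knockout hearts, against 7.21, 7.16 and 6.99 in control hearts. Of these, 4 were higher and 4 lower in the knockout, with Krt19 (1.697), Wt1 (0.30) and Upk1b (-0.38) at an unadjusted p under 0.05. Over all genes tested, 8.78% had such a p in limma. The 8 erythroid markers had mean levels of 7.92 and 8.10 in knockout hearts, against 8.49, 7.89 and 9.25 in control hearts. All 8 were lower in the knockout, none with an unadjusted p under 0.05 in limma. Of 4 tested neural crest markers 2 were higher and 2 lower, with Ets1 (0.64) at an unadjusted p under 0.05. The part of these cells, or of cardiomyocytes, in the guidance values was not tested. Of 11 neuronal markers 6 were dim, among them Dcx and Neurod1, and the list's mean level was 4.66 and 4.62 in knockout hearts and 4.67 to 4.69 in controls. Of the 5 tested, 3 were higher and 2 lower in the knockout, with a median difference of 0.0085. Only Tubb3 had an unadjusted p under 0.05. It was at 6.94 and 6.50 in knockout hearts against 7.42, 7.43 and 7.71 in control hearts, a difference of -0.80 (unadjusted p = 0.0106 in limma).

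Genes that act with or downstream of these receptors were examined as 2 lists, chosen with earlier results of these data known. Of 10 tested coreceptors and other partners, 5 were higher and 5 lower, none with an unadjusted p under 0.05 in limma, and the median was -0.02. Flrt2 and Flrt3, membrane proteins that bind Unc5 receptors, were picked from these after their values were seen. Both, of the 10 tested, had knockout replicate 1 below and knockout replicate 2 above all controls. Over all genes, 5.59% had this order. Flrt2 was at 7.46 and 8.30 in knockout hearts and 7.74 to 7.78 in controls. Flrt3 was at 7.78 and 8.48 in knockout hearts and 7.96 to 8.19 in controls. Of 36 tested cytoplasmic effectors, 16 were higher and 19 lower (median -0.0057), and 3 had an unadjusted p under 0.05, all lower, where 8.78% of all genes had such a p and 5.49% were lower with it. These were Dpysl3 of the collapsin response mediator family (-0.64), Rnd2 (-0.95) and the plexin- and neuropilin-binding adaptor gene Gipc1 (-0.24). Dpysl3 had levels of 8.45 and 8.05 in knockout hearts, against 8.81, 8.91 and 8.95 in control hearts. Rnd2 had levels of 5.58 and 6.35 in knockout hearts, against 6.75, 6.76 and 7.24 in control hearts. The actin-regulating GTPase genes Rhoa, Rac1 and Cdc42 differed by 0.0076, 0.01 and -0.07. No tested effector was split in the order of Flrt2 and Flrt3. The effectors Vav3, Rasa1, Nck1 and Mical2, of the 36 tested, were split in the opposite order, which held for 5.94% of all genes.

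On the same arrays 15 of 15 targets of the hypoxia-inducible factors had higher means in knockout hearts, against 43.7% of all genes tested. This list was chosen with earlier results of these data known. Its median difference was 1.31, a shift of 1.48 and 1.14 in knockout replicates 1 and 2. Hypoxia-inducible factors bind a short core, ACGTG or GCGTG, so these letters were looked for in the promoters of Sema4g, Epha4, Ephb3 and Efnb3, whose groups did not overlap and differed by at least 0.4. RefSeq promoters of GRCm38.p6, from 250 bases before to 50 after the start, were found for 57 of the 67 guidance genes and for 3 of these 4. Capitals mark ACGTG or GCGTG on either strand, read 5′ to 3′ along the gene.
Sema4g, chr19:44989094-44989393, plus strand: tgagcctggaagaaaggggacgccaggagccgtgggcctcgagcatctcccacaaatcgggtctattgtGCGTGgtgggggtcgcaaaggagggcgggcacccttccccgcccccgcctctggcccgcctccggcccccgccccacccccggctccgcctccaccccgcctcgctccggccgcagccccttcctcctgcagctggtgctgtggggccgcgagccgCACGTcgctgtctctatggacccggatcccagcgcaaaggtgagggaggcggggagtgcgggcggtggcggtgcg
Epha4, chr1:77515039-77515338, minus strand: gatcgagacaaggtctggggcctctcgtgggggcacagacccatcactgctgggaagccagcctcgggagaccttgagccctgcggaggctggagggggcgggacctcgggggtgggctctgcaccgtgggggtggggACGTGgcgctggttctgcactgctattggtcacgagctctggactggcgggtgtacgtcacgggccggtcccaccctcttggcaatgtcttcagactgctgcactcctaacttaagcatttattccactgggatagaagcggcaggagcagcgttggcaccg
Ephb3, chr16:21204545-21204844, plus strand: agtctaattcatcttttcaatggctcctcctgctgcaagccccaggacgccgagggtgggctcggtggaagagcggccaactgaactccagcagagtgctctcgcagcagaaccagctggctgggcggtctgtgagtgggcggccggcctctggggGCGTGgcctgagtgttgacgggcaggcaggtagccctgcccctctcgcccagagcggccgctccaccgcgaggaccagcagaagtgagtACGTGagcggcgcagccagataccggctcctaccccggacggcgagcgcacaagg
The Sema4g window holds 2 matches, 1 of them ACGTG, the Epha4 window 1 match, ACGTG, and the Ephb3 window 2 matches, 1 of them ACGTG. Whether these matches bear on the levels was not tested. Such a match is common: ACGTG or GCGTG occurs in 43.8% of all 32851 promoter windows and in 35 of 73 windows of guidance genes (47.9%). ACGTG alone occurs in 19.6% of all windows and in 13 of the 73 windows of guidance genes. The letters alone do not mark a bound site.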

How the data were processed

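The values are log2 expression levels deposited by the authors as 1 table, made with Affymetrix Expression Console and RMA per the submitters' processing notes. RMA corrects background, equalises the distributions of the arrays and summarises probe sets. Versions and settings: not given in the sources used here. Scanner files were not analysed here, which leaves the background of single probes unknown; precision is limited by having 5 arrays. Equal values on at least 2 arrays occur for 54.8% of genes tested and for 23 of the 54 guidance genes, from a source that was not tested.

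The platform annotation names 23281 of 24479 probe sets with 1 symbol, 0 with several and 1198 with none. All 67 guidance symbols were found by Entrez number in a RefSeq table of GRCm38.p6, which gave the chromosomes. The brightest probe set of a gene was kept (23279 genes), and genes with a mean under the 40th percentile were left out, leaving 13967. Knockout and control were compared in limma 3.58.1 (R 4.3.3; lmFit, eBayes, two-sided, no covariate) with Benjamini-Hochberg adjustment over all genes tested and a threshold of 0.05. With 10 possible splits of 2 against 3 arrays, no permutation p can go below 0.1. Values on every array are given for guidance genes with an unadjusted p under 0.05, those without overlap and with a difference of at least 0.4, and the brightest of each family; other genes with values on every array were chosen after their values were seen. The members and lists were chosen with earlier results of these data known. Alternatives changed the dim filter, used an intensity trend in the prior or array weights, normalized or centred the arrays again, averaged probe sets, or left out each array. Those chosen after seeing the data were the removal of genes with tied values, the removal of 3 symbols that are not guidance receptors, and the repeats of the count of split genes. Averaging probe sets could change little, because the 23281 named probe sets stood for 23279 genes.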

Additional observations from a re-analysis of the deposited data

How the results depend on the processing

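No paired analysis was possible because the labels share no replicate number between the groups. The count of all genes with an adjusted p under 0.05 in limma (0, with 1227 at an unadjusted p under 0.05) was 0 to 983 when 1 array was left out, the highest without knockout replicate 2 and 9 without knockout replicate 1, and it was 7 among genes with 5 different values. For guidance genes it was 0 to 5, the 5 arising without knockout replicate 2 (Efna2, Efna4, Efnb3, Ntn3 and Sema6c, all lower). There the lone knockout array is assumed to vary like the controls. For Efna4, Ntn3 and Sema6c every control array had the same value, so their control spread was 0. On the array left out, Efna2, Ntn3 and Sema6c were above all controls. Guidance genes with an unadjusted p under 0.05 numbered 0 to 12 higher (12 without knockout replicate 1, 4 without knockout replicate 2, 0 without any 1 control) and 1 to 16 lower (16 without knockout replicate 2, 1 without control replicate 1). With array weights 0 were higher.

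Family medians with 1 array left out ranged from -0.0492 to 0.11 for semaphorins, -0.13 to 0.0254 for plexins, -0.32 to 0.11 for ephrin-A, -0.59 to -0.0522 for ephrin-B, -0.0236 to 0.10 for EphA, -0.30 to 0.0949 for EphB, -0.15 to 0.85 for Robo and -0.035 to -0.021 for Unc5. At the 60th percentile as dim filter they were -0.015 for semaphorins, -0.26 for EphB, -0.18 for Slit, -0.29 for netrins and -0.0732 for Unc5, with fewer genes tested. With no dim filter they were -0.13 for netrins and -0.013 for Unc5, which was also -0.013 without the 3 symbols that are not guidance receptors, -0.034 after quantile normalization again and -0.032 with centred arrays. Among genes with 5 different values they were 0.15 for semaphorins, -0.18 for Slit and -0.0817 for Unc5. With array weights EphA was at -0.015.

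With 1 array left out, 4 of the genes named by rule changed sign: Sema3a ranged from -0.48 to 0.0834, Efna5 from -0.47 to 0.42, Efnb2 from -0.0391 to 0.0796 and Robo1 from -0.33 to 0.85, each turning with 1 of the knockout arrays. Efna5 was also at 0.0706 without control replicate 1, 0.0843 without control replicate 2 and 0.0019 after quantile normalization again. Efnb3, Epha4, Epha7 and Ephb3 kept their direction under every alternative in which they were tested. Their groups did not overlap, so leaving out 1 array could not turn them, and changing the filter or the prior left their differences unchanged. With array weights the unadjusted p in limma was 0.0120 for Efnb3, 0.0414 for Epha7, 0.0884 for Epha4 and 0.104 for Ephb3. The cause of the changes of sign was not tested.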
